A study of Mus musculus with 21 samples.

Results

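The RNA of CD11chi and CD11clo macrophages sorted from kidneys behind a narrowed renal artery was compared gene by gene. Every library labelled with one of these populations and with renal artery stenosis (RAS) was taken, which gave 4 CD11chi and 4 CD11clo libraries, 8 of the 21 in the series. The mice were C57BL/6J males of 24 weeks that carried no other allele and received no agent named in the labels. RAS was made by a cuff around the right renal artery, and cells were taken 4 weeks after surgery. Live CD45+ cells positive for F4/80 and CD64 were sorted after lymphocytes (T, B and NK), granulocytes and red cells had been gated out by their lineage markers, with a flow sort time of 5 hours. Among these, CD11chi macrophages were CD11bhi CD11chi and CD11clo macrophages were CD11bhi with low or no CD11c. The labels call both populations derived from monocytes. The same 2 populations were also sorted from Sham-operated kidneys of the same strain, age and sex, with 3 libraries each. The study counts its Sham groups in mice. For the RAS libraries, whether each held the cells of 1 mouse or of several was not given in the sources used here, so that p-values measure only the spread between these libraries.

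Macrophages of the injured kidney come from cells that settled there before birth and from monocytes that enter from the blood. Classical monocytes of the mouse carry Ly6C and CCR2, and lose the first of these as they mature in tissue. CD11c, the integrin alpha X chain encoded by Itgax, is carried by conventional dendritic cells and by many macrophages, and in the kidney both can also carry F4/80, CD64 and major histocompatibility complex (MHC) class II. A sort on CD11c therefore separates cells on a scale that macrophages and dendritic cells share.

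Library totals ran from 6891148 to 10120513 estimated counts. The CPM given for genes and lists are counts scaled to library size after edgeR's TMM factor, which ran from 0.899 to 1.21 in these 8 libraries. The floor used here was 3 counts, which equalled 0.296 to 0.435 CPM when scaled to the library total without that factor. On the scale of the CPM given for genes, the floor therefore differs somewhat from these values. In a principal component analysis of log2 CPM, 45.3% of the variance fell on component 1 and 17.7% on component 2. CD11clo libraries lay between 28.8 and 85.7 on component 1 and CD11chi replicates 2 to 4 between -73.2 and -70.8, whereas CD11chi replicate 1 lay at -7.32, between the groups. CD11chi replicates 3 and 4 were far more alike than any other pair within these groups, with a chi-square per degree of freedom over genes of 5.13 against 38.5 to 166, which is still more than sampling noise, and they were counted as 2 libraries. Whether they came from separate mice was not given in the sources used here. The study's methods name fewer libraries for the CD11chi and CD11clo RAS groups than the labels do, without saying which, and the labels were followed. Counts of calls are therefore also given with these 2 libraries summed to 1, an alternative chosen after seeing the data. In CD11clo replicate 3 the resident macrophage list summed to 32552 CPM, against 7692 to 10604 CPM in the other CD11clo libraries. Mitochondrial transcripts took 0.749% to 1.96% of counts in 7 libraries and 5.02% in CD11chi replicate 2.

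**Figure D1:**
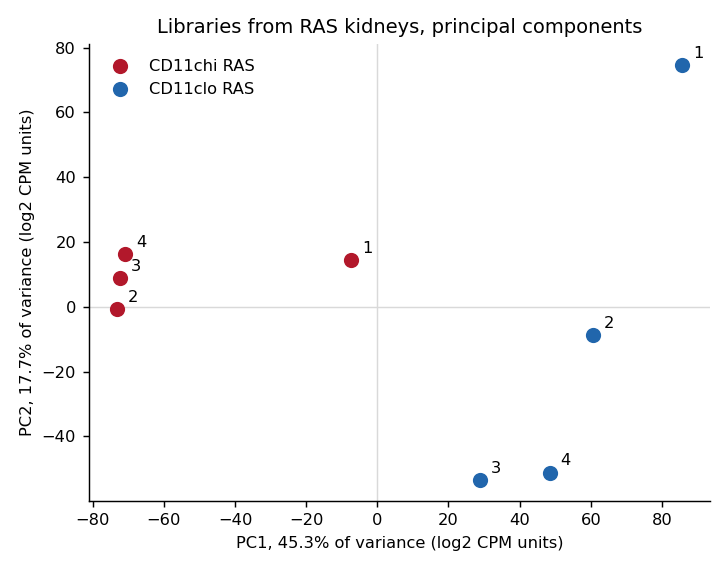
Principal components of log2 CPM of the 8 libraries from RAS kidneys, with the percentage of variance on each axis and 1 point per library. CD11chi replicates 2 to 4 and the 4 CD11clo libraries lie on opposite sides of the first component, and CD11chi replicate 1, at -7.32, lies between them.

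On average, libraries of different populations lay further apart than libraries of the same population. The root mean square difference of log2 CPM between 2 libraries averaged 1.36 across populations, 0.999 within CD11chi and 1.03 within CD11clo. The excess of 0.341 log2 units gave p = 0.0286 in a two-sided exact permutation test over 70 assignments, the smallest p that 4 against 4 allows. The library nearest to CD11chi replicate 1 was of the other population, since it lay at 0.952 from CD11clo replicate 3 and at 1.04 to 1.19 from the other CD11chi libraries, and CD11clo replicates 1 and 3 lay 1.32 apart. Replicates 3 and 4 summed left an excess of 0.282.

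The sorting genes were read first. Itgax was at 342, 441, 861 and 857 CPM in CD11chi RAS replicates 1 to 4 and at 7.96, 35.6, 55.1 and 44.7 CPM in CD11clo RAS replicates 1 to 4. Its log2 fold change, CD11chi over CD11clo, was 4.12 (SE 0.59, adjusted p = 0.00612) by edgeR's quasi-likelihood test with Benjamini-Hochberg adjustment over all genes tested. Every CD11chi library lay above every CD11clo library, as the labels state for the protein. Emr1, which encodes F4/80, was at 713, 189.6, 119 and 110.4 CPM in CD11chi and 825, 667, 1739 and 798 CPM in CD11clo libraries, and Fcgr1, which encodes CD64, at 109, 43.9, 19 and 11.5 and 116, 114, 230.3 and 114 CPM. Both groups held transcripts of both gate markers, but CD11chi replicates 2 to 4 had less of each than any CD11clo library. Neither difference passed the threshold, with log2 fold changes of -1.83 (adjusted p = 0.0989) for Emr1 and -1.64 (adjusted p = 0.128) for Fcgr1. Both passed it without CD11chi replicate 1, by DESeq2 and in the fit of all 6 groups, with adjusted p from 0.00381 to 0.399 over 18 alternatives for Emr1 and from 0.0108 to 0.384 over 20 for Fcgr1. Itgam, the CD11b gene, differed by -0.87 (adjusted p = 0.151) and Ptprc, the CD45 gene, by -0.59 (adjusted p = 0.198). Of 12 macrophage identity genes none was called by edgeR, 4 had an unadjusted p under 0.05, DESeq2 called 4 and limma, on the deposited log2 table, 0. Of these genes 10 had a negative log2 fold change, with a median of -0.21, and the list summed to 17740.1 to 28964 CPM in CD11chi and 39385 to 49099.8 CPM in CD11clo libraries, without overlap. Cd68 was at 676 ± 43 CPM (SD, n = 4) in CD11chi and 652 ± 76.3 CPM (SD, n = 4) in CD11clo libraries. Csf1r, the receptor of macrophage colony-stimulating factor, was at 2211, 519.8, 905 and 843 CPM in CD11chi and 2369, 2244, 3908 and 2919.7 CPM in CD11clo libraries, groups that did not overlap, a log2 fold change of -1.35 (adjusted p = 0.0886).

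Of 12305 genes tested, 903 (7.34%) were called at an adjusted p under 0.05 and a fold change above 2, 584 (4.75%) higher and 319 (2.59%) lower in CD11chi macrophages. The groups did not overlap in CPM for 825 of the 903, against 2037 (16.6%) of all genes tested. The median log2 fold change was 0.01 over all genes tested, 2.25 over the genes called higher and -1.82 over those called lower. With CD11chi replicates 3 and 4 summed, 279 of 12657 genes (2.2%) were called, 214 higher and 65 lower, 275 of them among the 903. Leaving out 1 library gave between 256 calls, without CD11chi replicate 3, and 1660 calls, without CD11chi replicate 1. CD11chi replicate 1 was the CD11chi library nearest to the CD11clo group for 446 of the 584 genes called higher and for 229 of the 319 called lower. A call that held with each of the 8 libraries left out in turn and with replicates 3 and 4 summed is called kept below, and where a call described below was not kept, the libraries without which it was lost are given, and whether it was lost with replicates 3 and 4 summed, with the range of its adjusted p over all alternatives. There were 226 kept calls, 25% of the 903, with 179 higher and 47 lower. In bulk RNA of sorted cells, fewer cells of a type and less RNA per cell cannot be told apart, and this holds for every difference below.

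Genes of conventional dendritic cells were higher in CD11chi macrophages, with Ccl17 and Ccl22 at the largest fold changes of all named genes. Of 23 such genes tested, 17 were called higher and 0 lower, and the median log2 fold change was 2.83. Of the 17 calls, 10 were kept, and leaving out 1 library gave from 10 calls without CD11clo replicate 2 to 19 without CD11chi replicate 1 or CD11clo replicate 3, and 11 with replicates 3 and 4 summed. Ccl17, which encodes a ligand of the chemokine receptor CCR4, is a protein-coding gene at chr8:94810453-94812036, plus strand (GRCm38). It was at 35.6, 766, 543 and 567 CPM in CD11chi replicates 1 to 4 and at 0, 0.225, 0.852 and 0.46 CPM in CD11clo replicates 1 to 4. The log2 fold change was 10.25 (SE 1.16, adjusted p = 0.00297), a kept call, and the CD11clo levels lay near the floor of 3 counts. CD11chi replicate 1 held far less Ccl17 than the other CD11chi libraries and still lay above every CD11clo library. Ccl22, encoding the other CCR4 ligand, was at 50.8, 256, 603 and 635 CPM in CD11chi and 0, 0.112, 4.58 and 2.42 CPM in CD11clo libraries, a log2 fold change of 7.76 (SE 1.27, adjusted p = 0.00878). Ccr7, the receptor that directs dendritic cells to lymph nodes, was at 39.4, 222, 376 and 399.7 CPM in CD11chi and 2.04, 1.91, 7.99 and 6.1 CPM in CD11clo libraries, a log2 fold change of 5.84 (SE 0.81, adjusted p = 0.00519). Both were kept, and both had their lowest CD11chi level in replicate 1.

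The genes that define the dendritic cell lineage showed less spread among CD11chi libraries. Zbtb46, a transcription factor of conventional dendritic cells and their committed precursors, was at 69.1, 60, 118 and 155 CPM in CD11chi and 4.85, 3.82, 7.56 and 7.48 CPM in CD11clo libraries, a log2 fold change of 4.08 (SE 0.39, adjusted p = 0.00138). Flt3, the cytokine receptor on which these cells depend, was at 89.1, 120.4, 169 and 179.9 CPM in CD11chi and 26.7, 31.3, 17.9 and 33.2 CPM in CD11clo libraries, a log2 fold change of 2.36 (SE 0.29, adjusted p = 0.0036). Neither gene overlapped between the groups, both calls were kept, and Zbtb46 stayed called under every alternative tried. Itgae, the CD103 chain of the Xcr1-bearing subset, was at 25.4, 29.2, 17.3 and 21.3 CPM in CD11chi and 2.52, 1.01, 1.17 and 1.5 CPM in CD11clo libraries, a log2 fold change of 3.89 (SE 0.36, adjusted p = 0.00138). The other kept calls were Fscn1, an actin-bundling protein of mature dendritic cells, at 4.74 (adjusted p = 0.00399), Kmo, an enzyme of tryptophan breakdown, at 2.83 (adjusted p = 0.00486), Adam23 at 5.06 (adjusted p = 0.00626) and Cacnb3 at 5.21 (adjusted p = 0.00784). Cd209a, a lectin of monocyte-derived and CD11b+ dendritic cells, reached 649, 1386, 3755 and 3964 CPM in CD11chi and 43, 182, 216 and 303 CPM in CD11clo libraries, but its call at 3.71 (adjusted p = 0.0176) was lost without CD11chi RAS replicate 3 or 4 or CD11clo RAS replicate 2, or with replicates 3 and 4 summed (adjusted p from 7.59e-08 to 0.171 over 20 alternatives). It is 1 of a family of near-identical genes between which reads could be split. Xcr1, the chemokine receptor of the cross-presenting subset, was called at 3.19 (adjusted p = 0.0405) and lost the call without CD11chi RAS replicate 2, 3 or 4 or CD11clo RAS replicate 1, 2 or 4, or with replicates 3 and 4 summed (adjusted p from 0.000454 to 0.117 over 19 alternatives). Clec9a, of the same subset, did not pass at 2.23 (adjusted p = 0.0834), and Cd24a had the opposite sign, also without passing, at -1.41 (adjusted p = 0.0562).

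Of 32 lineage transcription factors tested, 3 were called higher and 5 lower, and leaving out 1 library gave from 4 calls without CD11clo replicate 2 or 4 to 13 without CD11chi replicate 1, and 6 with replicates 3 and 4 summed. DESeq2 called 14. Beside Zbtb46 these were Irf4, required for CD11b+ dendritic cells, at 2.34 (adjusted p = 0.0132), and Batf3, required for the Xcr1-bearing subset, at 1.55 (adjusted p = 0.0294). The Irf4 call was lost without CD11clo RAS replicate 2 or 4 (adjusted p from 3.80e-06 to 0.136 over 20 alternatives), and the Batf3 call without CD11chi RAS replicate 3 or 4 or CD11clo RAS replicate 1, 2 or 4, or with replicates 3 and 4 summed (adjusted p from 0.00138 to 0.136 over 20 alternatives). The lower genes were Cebpb, Cebpd, Id3, Ahr and Rxra. Cebpb, a factor of monocyte maturation and survival, was at 595, 496, 273 and 246 CPM in CD11chi and 1808, 1802, 1182 and 2078 CPM in CD11clo libraries, a kept call at -2.09 (SE 0.35, adjusted p = 0.0103). Every CD11clo library held more Cebpb than any CD11chi library. Cebpd was at -1.26 (adjusted p = 0.00698) and Id3, an inhibitor of E proteins, at -1.55 (adjusted p = 0.00815), both kept. Ahr, the aryl hydrocarbon receptor, was called at -1.28 (adjusted p = 0.0185) and lost the call without CD11chi RAS replicate 3 or CD11clo RAS replicate 2 or 4 (adjusted p from 0.000104 to 0.0876 over 20 alternatives). Rxra, a retinoid X receptor, at -1.14 (adjusted p = 0.0202), lost it without CD11chi RAS replicate 3 or 4 or CD11clo RAS replicate 1, 2 or 4, or with replicates 3 and 4 summed (adjusted p from 0.000426 to 0.219 over 20 alternatives).

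**Figure D2:**
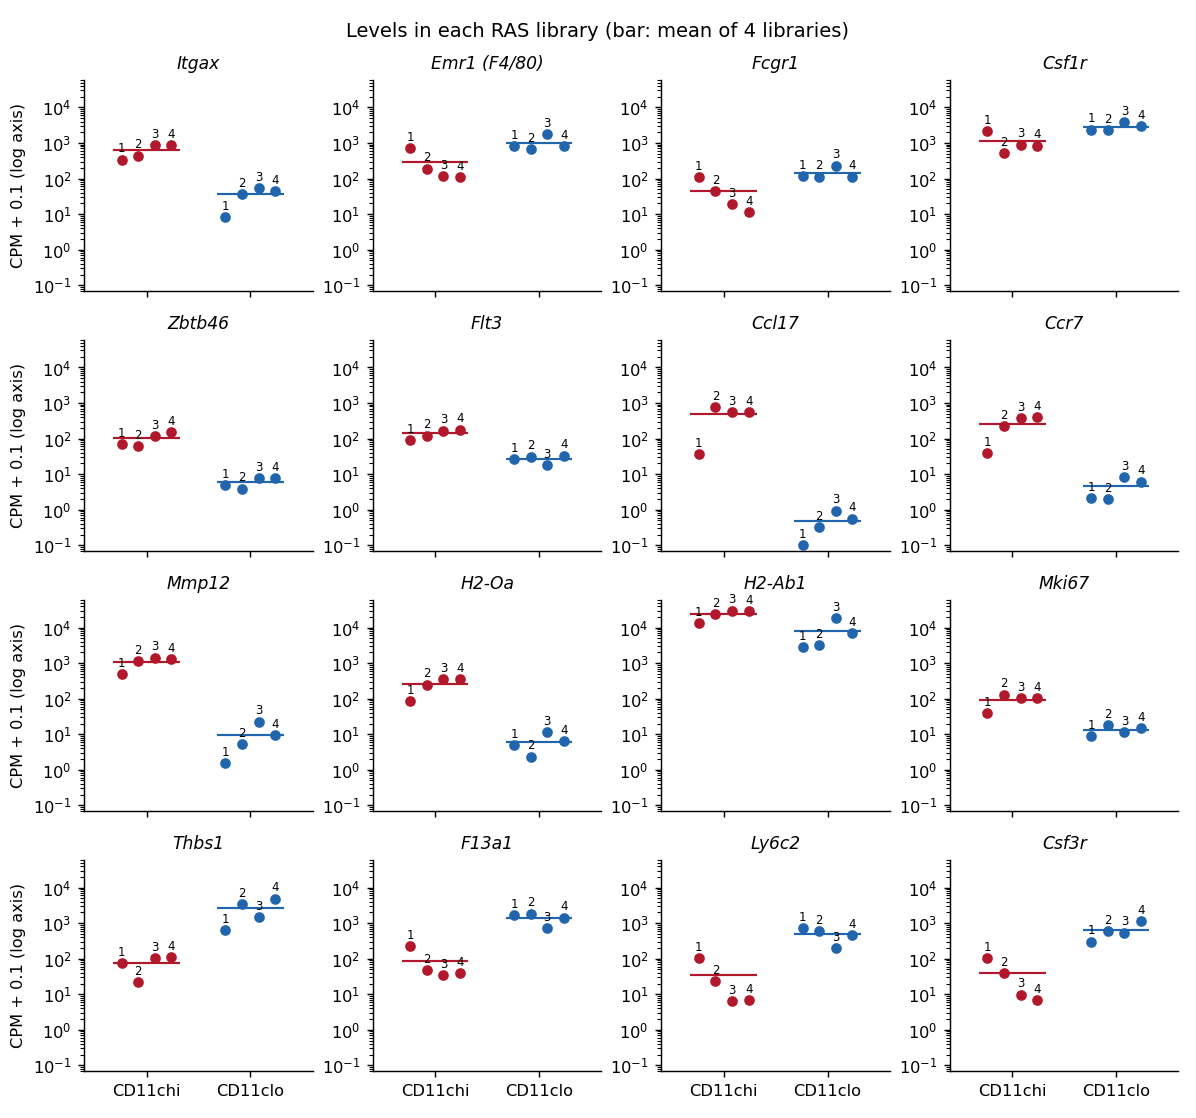
Levels of 16 genes in each RAS library, in CPM plus 0.1 on a log axis, with CD11chi left, CD11clo right, replicates 1 to 4 from left to right and a bar at the mean of 4 libraries. Itgax, Zbtb46, Flt3, Ccl17, Ccr7, Mmp12, H2-Oa and Mki67 are higher in every CD11chi library, and Thbs1, F13a1, Ly6c2 and Csf3r are higher in every CD11clo library.

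Most antigen presentation genes lay on the CD11chi side, and the number called depended on the fit. Of 19 MHC class II and costimulation genes tested, 3 were called higher and 0 lower, with 17 of 19 on the higher side and a median log2 fold change of 1.35. The list held 12 calls with the replicate block, 11 by DESeq2, 8 in the fit of all 6 groups and 6 without CD11chi replicate 1. The 3 genes called in the main fit encode chains of the non-classical class II molecules that edit peptide loading. H2-Oa was at 84.6, 248, 348 and 349 CPM in CD11chi and 4.85, 2.25, 11.1 and 6.21 CPM in CD11clo libraries, a log2 fold change of 5.40 (SE 0.61, adjusted p = 0.00297). H2-DMb2 was at 243, 539, 1301 and 1305 CPM in CD11chi and 8.15, 13.5, 39.3 and 19.8 CPM in CD11clo libraries, a log2 fold change of 5.39 (SE 0.71, adjusted p = 0.00485). The groups stood far apart for both genes and both calls were kept, although H2-DMb2 is near-identical to H2-DMb1, which did not pass at 1.06 (adjusted p = 0.131). H2-Ob, the partner chain of H2-Oa, was called at 3.43 (SE 0.66, adjusted p = 0.017) and lost the call without CD11chi RAS replicate 3 or 4 or CD11clo RAS replicate 2 or 4, or with replicates 3 and 4 summed (adjusted p from 3.28e-07 to 0.165 over 20 alternatives). The classical chain H2-Ab1 was at 13588, 23898, 29735 and 29396 CPM in CD11chi and 2817, 3122, 18384 and 7049.9 CPM in CD11clo libraries, and its log2 fold change of 1.62 (adjusted p = 0.137) did not pass. Its CD11clo replicate 3 lay above CD11chi replicate 1, and without CD11clo replicate 3 the number of called genes in the list rose from 3 to 11. With replicates 3 and 4 summed it was 2. Cd86 and Cd80, the ligands of CD28, were at -0.01 (adjusted p = 0.994) and -0.19 (adjusted p = 0.884).

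Genes of the cell cycle were higher in CD11chi macrophages almost throughout the list. Of 26 tested, 24 were called higher and 0 lower, and the median log2 fold change was 3.40. Of the 24 calls, 18 were kept, and leaving out 1 library gave from 18 calls without CD11chi replicate 3 to 25 without CD11chi replicate 1, and 18 with replicates 3 and 4 summed. Mki67, the Ki-67 antigen of cycling cells, was at 39.7, 129, 104 and 102 CPM in CD11chi and 8.54, 17.9, 11.2 and 15.1 CPM in CD11clo libraries, a log2 fold change of 2.83 (SE 0.38, adjusted p = 0.00491). Ube2c, an enzyme of the anaphase-promoting complex, was at 16.8, 34.1, 53 and 49 CPM in CD11chi and 0.485, 1.01, 0.213 and 0.69 CPM in CD11clo libraries, a log2 fold change of 5.97 (SE 0.53, adjusted p = 0.00138). No CD11clo library reached the lowest CD11chi library for either gene, and the lowest CD11chi library was replicate 1 in both. Top2a, the mitotic topoisomerase, was at 3.84 (adjusted p = 0.0036), Ccna2, cyclin A, at 4.18 (adjusted p = 0.00138) and Bub1, a spindle checkpoint kinase, at 6.46 (adjusted p = 0.0045). Pcna, the replication clamp, did not pass at 0.38 (adjusted p = 0.284), nor did Cenpa at 1.05 (adjusted p = 0.085). The 26 genes summed to 720.2 to 1554 CPM in CD11chi and 204 to 322 CPM in CD11clo libraries. With both CD11chi replicates 3 and 4 left out, 2 of the 24 calls remained, in a fit that called 26 of 13160 genes in all. The same fit called 3 genes of the dendritic cell list and 0 of the classical monocyte, neutrophil and serous cavity macrophage lists described here.

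The promoters of these members were read for the motifs known from such genes. Many genes of mitosis carry CCAAT boxes, which NF-Y binds, and a TTTGAA element close to the start of transcription, and MHC class II genes carry a CCAAT box as part of their shared promoter module. In RefSeq promoters of GRCm38.p6, from 250 bases before to 50 after the start, CCAAT was found on either strand in 19 of 22 matched cell cycle genes (86.4%) and TTTGAA on either strand in 11 of 22 (50%). Over all 27025 genes with a promoter, the shares were 41.1% and 20.2%. CCAAT was found in 8 of 12 matched genes of the MHC class II list (66.7%) in 7 of 13 of the neutrophil list (53.8%) and in 4 of 19 of the dendritic cell list (21.1%). A match describes letters and no measured binding. The windows printed run from 110 bases before to 30 after the start, 5′ to 3′ on the gene's strand, and are shown for the 3 class II genes called and for 4 kept genes of mitosis, among them Ccnb2 and Cdk1, a mitotic cyclin and its kinase. These 4 were picked as examples without a rule and do not stand for the other kept genes of the list. Capitals mark CCAAT or its reverse complement ATTGG, and TTTGAA or its reverse complement TTCAAA, none of which overlap. They lie at chr9:70421525-70421664 on the minus strand for Ccnb2, chr10:69352883-69353022 on the minus strand for Cdk1, chr2:164769819-164769958 on the plus strand for Ube2c, chr11:99024160-99024299 on the minus strand for Top2a, chr17:34092269-34092408 on the plus strand for H2-Oa, chr17:34145139-34145278 on the plus strand for H2-DMb2 and chr17:34238795-34238934 on the plus strand for H2-Ob.
Ccnb2: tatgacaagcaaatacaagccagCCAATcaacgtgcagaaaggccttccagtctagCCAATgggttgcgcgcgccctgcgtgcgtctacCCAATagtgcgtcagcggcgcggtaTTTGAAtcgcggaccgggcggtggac
Cdk1: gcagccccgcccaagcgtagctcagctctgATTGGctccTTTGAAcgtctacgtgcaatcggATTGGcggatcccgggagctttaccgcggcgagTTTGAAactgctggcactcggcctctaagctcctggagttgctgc
Ube2c: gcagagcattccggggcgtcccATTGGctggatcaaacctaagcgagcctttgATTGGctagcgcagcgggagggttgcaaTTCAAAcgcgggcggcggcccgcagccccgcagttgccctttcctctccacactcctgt
Top2a: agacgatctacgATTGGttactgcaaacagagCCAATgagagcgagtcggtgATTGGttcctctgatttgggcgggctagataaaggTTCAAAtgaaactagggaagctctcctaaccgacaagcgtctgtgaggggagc
H2-Oa: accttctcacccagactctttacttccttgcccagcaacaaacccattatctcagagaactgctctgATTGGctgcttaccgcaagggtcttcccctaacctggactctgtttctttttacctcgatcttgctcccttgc
H2-DMb2: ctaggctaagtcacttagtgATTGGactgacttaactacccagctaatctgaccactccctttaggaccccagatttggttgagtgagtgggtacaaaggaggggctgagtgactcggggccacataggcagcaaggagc
H2-Ob: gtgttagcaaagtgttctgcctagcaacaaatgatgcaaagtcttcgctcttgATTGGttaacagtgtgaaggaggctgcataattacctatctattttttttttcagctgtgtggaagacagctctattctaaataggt

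Ccnb2 has 3 CCAAT boxes and 1 TTTGAA element in its window, Cdk1 has 2 and 2, Ube2c 2 and 1, and Top2a 3 and 1. Each of the 3 MHC class II windows has 1 CCAAT box and 0 TTTGAA elements. Ccnb2 was at 17.6, 28.6, 41.3 and 41.6 CPM in CD11chi and 2.91, 1.57, 1.7 and 0.46 CPM in CD11clo libraries, and Cdk1 at 11.4, 14.5, 22.2 and 28.9 and 0.97, 1.8, 3.19 and 1.61 CPM. Both were kept calls without overlap, with log2 fold changes of 4.25 (SE 0.51, adjusted p = 0.00348) and 3.34 (SE 0.45, adjusted p = 0.00491).

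Markers of T cells moved with the CD11chi group although the sort excluded lymphocytes. Of 13 T cell and NK cell genes tested (16 in the list), 11 were called higher and 0 lower, and the median log2 fold change was 2.87. The list summed to 452, 421, 214 and 222 CPM in CD11chi and 59.1, 21.2, 34 and 46 CPM in CD11clo libraries, and the 2 groups did not overlap. Cd3e, a chain of the T cell receptor complex, was at 26.7, 9.18, 12.3 and 12.5 CPM in CD11chi and 5.63, 0.899, 2.98 and 3.8 CPM in CD11clo libraries. CD11chi replicate 1 held the most Cd3e and its call, at 2.19 (adjusted p = 0.0389), was lost without CD11chi RAS replicate 1, 2, 3 or 4 or CD11clo RAS replicate 2, 3 or 4, or with replicates 3 and 4 summed (adjusted p from 0.00172 to 0.19 over 19 alternatives). The kept calls were Ccl5, a chemokine that macrophages and dendritic cells also make, at 3.68 (adjusted p = 0.0036), Cd8b1 at 3.33 (adjusted p = 0.00491) and Il7r at 4.16 (adjusted p = 0.00556). Among genes of NK cells, Nkg7, which cytotoxic T cells share, was called at 2.94 (adjusted p = 0.015) and lost the call without CD11clo RAS replicate 2 or 4 (adjusted p from 3.49e-06 to 0.0545 over 20 alternatives), Klrb1c and Gzmb did not pass at 3.32 (adjusted p = 0.0731) and 2.81 (adjusted p = 0.0799), and Ncr1, Gzma and Prf1 were too low to be tested. Without CD11clo replicate 2 or without CD11clo replicate 4, 3 of the 11 calls remained, and with replicates 3 and 4 summed the list held 7 calls. B cell and plasma cell genes summed to 750.1 to 4442 CPM in CD11chi and 446 to 579.7 CPM in CD11clo libraries, mostly Ighm and Igkc. Of 7 tested, edgeR called 0, 5 had an unadjusted p under 0.05, DESeq2 called 3 and limma 0. Of its defining markers, Ms4a1 averaged 0.544 CPM in CD11chi libraries, and Pax5 was at 0 in all 8. What part the T cell and NK cell transcripts had in the genes called higher was not tested.

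**Figure D3:**
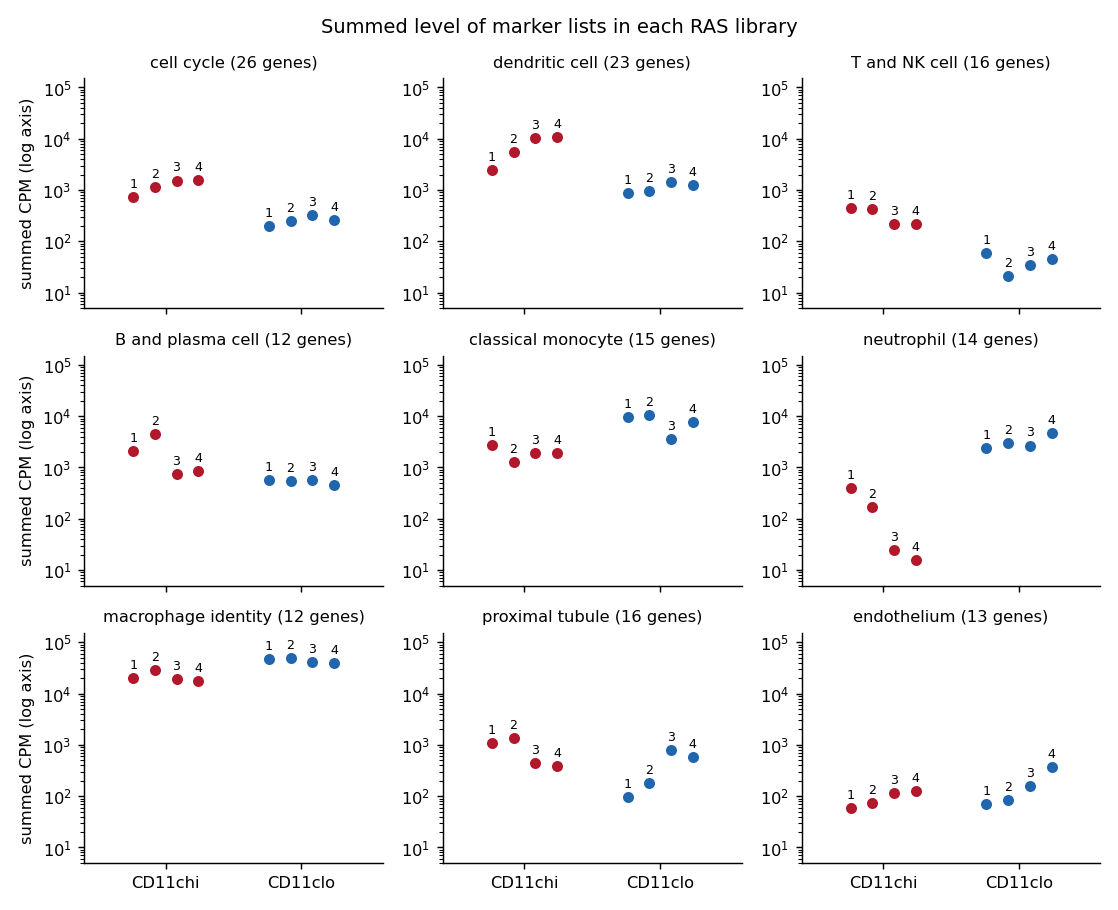
Summed CPM of 9 marker lists in each RAS library on a log axis, with CD11chi left, CD11clo right and a point per library. Neutrophil transcripts sum to 16 to 393 CPM in CD11chi and 2354 to 4778 CPM in CD11clo libraries, T and NK cell transcripts to 214 to 452 and 21.2 to 59.1 CPM.

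The largest fold change after Ccl17 and Ccl22 among the named genes was that of Mmp12, the macrophage elastase, a protein-coding gene at chr9:7344381-7369499, plus strand. It was at 478, 1137, 1421 and 1325 CPM in CD11chi replicates 1 to 4 and 1.46, 5.17, 22.5 and 9.32 CPM in CD11clo replicates 1 to 4. The log2 fold change was 6.83 (SE 0.84, adjusted p = 0.0036), a kept call with no overlap. Mmp12 was also the only member of the matrix list called higher without overlap between the groups. Dcstamp, a fusion protein of osteoclasts and dendritic cells, was at 6.08 (adjusted p = 0.00648), Hr, a transcriptional corepressor, at 6.37 (adjusted p = 0.0036) and Cyp2s1, a cytochrome P450, at 5.67 (adjusted p = 0.00626), all kept. Among the most abundant genes called higher, Lpl, lipoprotein lipase, was at 603, 1211, 1106 and 1066 CPM in CD11chi and 159.9, 329.9, 341 and 302 CPM in CD11clo libraries, a kept call at 1.81 (SE 0.32, adjusted p = 0.0129). Gm2a, a lysosomal lipid activator, was called at 1.24 (adjusted p = 0.0489) and lost the call without CD11chi RAS replicate 2, 3 or 4 or CD11clo RAS replicate 1, 2, 3 or 4, or with replicates 3 and 4 summed (adjusted p from 0.00211 to 0.348 over 20 alternatives). Syngr2, a vesicle membrane protein, was called at 1.78 (adjusted p = 0.0164) and lost the call without CD11chi RAS replicate 3 or 4 or CD11clo RAS replicate 2 or 4, or with replicates 3 and 4 summed (adjusted p from 3.59e-06 to 0.162 over 20 alternatives).

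Of 14 genes of non-classical monocytes, Ear2, an eosinophil-associated ribonuclease, was the 1 called (7.14%), higher in CD11chi at 3.01 (adjusted p = 0.00626) and kept, whereas 9 of the 14 had a negative log2 fold change and the median was -0.51. It was at 288, 577, 998 and 1002 CPM in CD11chi and 101, 95.3, 50.5 and 110.4 CPM in CD11clo libraries. Of 17 alternative activation genes, 5 were called higher and 0 lower, and the median log2 fold change was 0.58. Those were Ccl17 and Ccl22, which were kept, Irf4 and Clec10a, a galactose lectin, at 2.46 (adjusted p = 0.0162), all counted among the dendritic cell genes, and Socs2, an inhibitor of cytokine signalling, at 3.10 (adjusted p = 0.0246). Clec10a lost the call without CD11chi RAS replicate 3 or 4 or CD11clo RAS replicate 2 or 4, or with replicates 3 and 4 summed (adjusted p from 1.94e-06 to 0.17 over 20 alternatives), and Socs2 without CD11chi RAS replicate 2, 3 or 4 or CD11clo RAS replicate 2 or 4, or with replicates 3 and 4 summed (adjusted p from 5.12e-05 to 0.178 over 19 alternatives). When 1 library was left out, the list gave from 2 calls without CD11clo replicate 2 or 4 to 9 without CD11chi replicate 1, and 3 with replicates 3 and 4 summed. Retnla and Mrc1, well-known genes of this state, did not pass, with log2 fold changes of 0.58 (adjusted p = 0.537) and -0.69 (adjusted p = 0.522). Of 26 cytokine genes, 1 was called higher (3.85%, against 4.75% of all genes tested) and 2 lower, Csf1 and Osm. Il12b, the higher one, was at 4.77 (adjusted p = 0.0335) and lost the call without CD11chi RAS replicate 2, 3 or 4 or CD11clo RAS replicate 2 or 4, or with replicates 3 and 4 summed (adjusted p from 0.00715 to 0.262 over 19 alternatives). Il1b averaged 4898 ± 2919 CPM (SD, n = 4) in CD11chi and 4545 ± 2447 CPM (SD, n = 4) in CD11clo libraries, a log2 fold change of 0.11 (adjusted p = 0.936), and Tnf differed by -0.14 (adjusted p = 0.893). Of 12 CC chemokines tested, Ccl5, Ccl17 and Ccl22 were called, all kept. Of 11 CXC chemokines edgeR called none, 3 had an unadjusted p under 0.05, DESeq2 called 2 and limma 1.

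Genes of classical monocytes were on the CD11clo side. Of 15 tested, 8 were called lower in CD11chi and 0 higher, all 15 had a negative log2 fold change, and the median was -3.34. With 1 library left out there were from 2 calls without CD11chi replicate 4 to 11 without CD11chi replicate 1, and 2 with replicates 3 and 4 summed. F13a1, the transglutaminase chain of coagulation factor XIII, was at 224, 48.7, 34.3 and 38.4 CPM in CD11chi and 1712, 1849, 729.7 and 1429.6 CPM in CD11clo libraries, a log2 fold change of -4.05 (SE 0.69, adjusted p = 0.0103). The call was kept without overlap, and CD11chi replicate 1 was the highest CD11chi library. Ly6c2, a Ly6C gene, was at 106, 23.4, 6.27 and 6.89 CPM in CD11chi and 742, 607, 196 and 471 CPM in CD11clo libraries, and its call at -3.82 (adjusted p = 0.0355) was lost without CD11chi RAS replicate 2, 3 or 4 or CD11clo RAS replicate 1, 2 or 4, or with replicates 3 and 4 summed (adjusted p from 0.00123 to 0.17 over 20 alternatives). Reads could be split between Ly6c2 and its near-copy Ly6c1. Vcan, the proteoglycan versican, was called at -4.80 (adjusted p = 0.019) and lost the call without CD11chi RAS replicate 2, 3 or 4, or with replicates 3 and 4 summed (adjusted p from 4.68e-08 to 0.218 over 20 alternatives). Ccr2, the receptor for monocyte egress from marrow, did not pass at -0.69 (adjusted p = 0.171).

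Transcripts known from neutrophils were lower in CD11chi as well, although granulocytes were gated out. Of 10 tested (14 in the list), 7 were called lower and 0 higher, and the median log2 fold change was -4.50. When 1 library was left out, the list gave from 1 call without CD11chi replicate 3 to 9 without CD11chi replicate 1, and 3 with replicates 3 and 4 summed. The list summed to 393, 173, 24.5 and 16 CPM in CD11chi and 2354, 3053, 2680.2 and 4778 CPM in CD11clo libraries. Ly6g, the surface marker of mature neutrophils, averaged 0.184 CPM in CD11clo libraries. Elane and Mpo, granule genes transcribed mainly in neutrophil precursors, averaged 0.0569 and 0 CPM there. Cxcr2, a chemokine receptor, was at 7.73, 3.06, 0.99 and 1.24 CPM in CD11chi and 17.2, 88.8, 104 and 186 CPM in CD11clo libraries, a log2 fold change of -4.89 (SE 0.84, adjusted p = 0.0107), the 1 kept call of the 7. Mmp9, a gelatinase, was at 52.9, 21.6, 3.96 and 1.69 CPM in CD11chi and 337, 447, 600.4 and 1209 CPM in CD11clo libraries, and its call at -5.01 (adjusted p = 0.0195) was lost without CD11chi RAS replicate 2 or 3 or CD11clo RAS replicate 4 (adjusted p from 2.50e-05 to 0.0772 over 20 alternatives). Csf3r, the receptor of granulocyte colony-stimulating factor, was called at -4.01 (adjusted p = 0.0234) and lost the call without CD11chi RAS replicate 2, 3 or 4 or CD11clo RAS replicate 2 or 4, or with replicates 3 and 4 summed (adjusted p from 0.000224 to 0.112 over 20 alternatives). S100a8, a calgranulin that monocytes make too, was called at -4.49 (adjusted p = 0.0326) and lost the call without CD11chi RAS replicate 2, 3 or 4 or CD11clo RAS replicate 2 or 4, or with replicates 3 and 4 summed (adjusted p from 0.000605 to 0.103 over 20 alternatives). CD11chi replicates 3 and 4 had the lowest levels of Cxcr2, Mmp9, Csf3r and S100a8. What part neutrophil transcripts had in the lower genes was not tested.

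Thbs1, which encodes thrombospondin 1, had the highest CD11clo level of the genes named for the largest fold changes on that side. The gene is protein-coding, lies at chr2:118111876-118127133, plus strand, and was at 74.8, 21.4, 102 and 109 CPM in CD11chi and 649, 3420.2, 1455 and 4901 CPM in CD11clo libraries. The log2 fold change was -5.08 (SE 0.76, adjusted p = 0.00626), a kept call. CD11clo replicates 2 and 4 held more than replicates 1 and 3, and all lay far above the CD11chi libraries. Of 13 coagulation genes tested, 4 were called lower and 0 higher, and the median log2 fold change was -0.69. These were F13a1, F5 (factor V), Thbd (thrombomodulin) and Serpinb2, an inhibitor of plasminogen activators, of which F13a1 and Serpinb2, at -4.13 (adjusted p = 0.00699), were kept. F5 lost the call without CD11chi RAS replicate 2, 3 or 4 or CD11clo RAS replicate 1, 2 or 4, or with replicates 3 and 4 summed (adjusted p from 0.00201 to 0.245 over 19 alternatives), and Thbd without CD11chi RAS replicate 3 or 4 or CD11clo RAS replicate 2 or 4, or with replicates 3 and 4 summed (adjusted p from 1.89e-05 to 0.226 over 20 alternatives). Of 20 genes known from serous cavity macrophages, 6 were called lower and 0 higher, with a median of -3.31, and leaving out 1 library gave from 3 calls without CD11chi replicate 3 or 4 or CD11clo replicate 1, 2 or 4 to 11 without CD11chi replicate 1, and 3 with replicates 3 and 4 summed. Thbs1, Serpinb2 and Lrg1, at -4.78 (adjusted p = 0.00626), were the kept ones, while Gata6, which defines those macrophages, averaged 1.08 CPM in CD11chi and 1.4 CPM in CD11clo libraries. Of 21 matrix and protease genes, 2 were called higher and 6 lower, with a median of -0.53, and of these Mmp12 and Thbs1 were kept. In the coagulation list, leaving out 1 library gave from 2 calls without CD11chi replicate 3 or 4 or CD11clo replicate 2 or 4 to 5 without CD11chi replicate 1 or CD11clo replicate 3, and 2 with replicates 3 and 4 summed. The matrix list gave from 2 calls without CD11chi replicate 3 to 9 without CD11chi replicate 1, and 3 with replicates 3 and 4 summed.

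Innate recognition, lipid mediator and complement genes held 5 kept calls on the CD11clo side. Over all genes tested, 1.84% were kept calls, in either direction. Clec4e, a receptor of mycobacterial glycolipid and of dead cells, was at -3.47 (adjusted p = 0.00501), Trem1, an amplifying receptor of myeloid cells, at -3.77 (adjusted p = 0.00541), and Msr1, scavenger receptor A, at -2.86 (adjusted p = 0.0101). These 3 were the kept calls of 32 pattern recognition genes, of which 1 was called higher and 5 lower. Alox5, the first enzyme of leukotriene synthesis, was at 38.8, 15.1, 13.2 and 12.3 CPM in CD11chi and 199, 176, 121 and 181 CPM in CD11clo libraries, a log2 fold change of -3.09 (SE 0.40, adjusted p = 0.0045) and the 1 kept call among 20 eicosanoid genes, of which 4 were called lower and 0 higher. C3, the central complement protein, was at 103, 188, 168 and 146 CPM in CD11chi and 465, 827, 369.6 and 737 CPM in CD11clo libraries, a log2 fold change of -1.99 (SE 0.32, adjusted p = 0.00815) and the 1 kept call among 19 complement genes, of which 3 were called lower and 0 higher. Csf1, which encodes macrophage colony-stimulating factor, was at 17, 8.72, 9.9 and 9.03 CPM in CD11chi and 68.3, 95, 116 and 251 CPM in CD11clo libraries, a kept call at -3.56 (SE 0.44, adjusted p = 0.00366). For Alox5, C3 and Csf1 the lowest CD11clo library lay above the highest CD11chi library. Pattern recognition genes, with 1 library left out, gave from 3 calls without CD11chi replicate 3 or 4 or CD11clo replicate 1, 2 or 4 to 14 without CD11chi replicate 1, and 3 with replicates 3 and 4 summed, and the eicosanoid list from 1 call without CD11chi replicate 2 or 3 or CD11clo replicate 2 or 4 to 9 without CD11chi replicate 1, and 1 with replicates 3 and 4 summed. Complement gave from 1 call without CD11chi replicate 3 or 4 or CD11clo replicate 2 or 4 to 8 without CD11chi replicate 1, and 1 with replicates 3 and 4 summed. Osm, oncostatin M, was called lower at -1.70 (adjusted p = 0.025) and lost the call without CD11chi RAS replicate 2 or 3 or CD11clo RAS replicate 2 or 4, or with replicates 3 and 4 summed (adjusted p from 8.83e-05 to 0.0767 over 20 alternatives). The cytokine list gave from 1 call without CD11chi replicate 3 or CD11clo replicate 2 or 4 to 6 without CD11chi replicate 1, and 1 with replicates 3 and 4 summed. DESeq2 and the fit of all 6 groups each gave 8 calls in complement, and the replicate block 6 in the cytokine list.

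Of 24 interferon-stimulated genes, 4 were called lower and 0 higher, 23 of 24 had a negative log2 fold change, and the median was -0.68. When 1 library was left out, the list gave from 0 calls without CD11chi replicate 3 or 4 or CD11clo replicate 2 or 4 to 8 without CD11chi replicate 1, and 0 with replicates 3 and 4 summed. None of the 4 calls was kept, among them that of Irf7, the factor that amplifies the interferon response, at -1.85 (adjusted p = 0.0184), which was lost without CD11chi RAS replicate 2, 3 or 4 or CD11clo RAS replicate 2 or 4, or with replicates 3 and 4 summed (adjusted p from 3.14e-05 to 0.202 over 20 alternatives). Among the most abundant genes called lower, Cybb, the catalytic subunit of the phagocyte oxidase, was at -1.12 (adjusted p = 0.0319) and lost the call without CD11chi RAS replicate 2, 3 or 4 or CD11clo RAS replicate 1, 2 or 4, or with replicates 3 and 4 summed (adjusted p from 4.25e-05 to 0.256 over 20 alternatives). Ly6e was at -1.09 (adjusted p = 0.0221) and lost the call without CD11chi RAS replicate 3 or 4 or CD11clo RAS replicate 1, 2 or 4, or with replicates 3 and 4 summed (adjusted p from 1.79e-07 to 0.228 over 20 alternatives). The remaining genes named for the largest fold changes on the CD11clo side were Mrgpra2b at -6.83 (adjusted p = 0.0103) and Chi3l1, a chitinase-like protein, at -5.75 (adjusted p = 0.0118), both kept, and Cd209f at -5.63 (adjusted p = 0.0397), Hdc, which makes histamine, at -5.35 (adjusted p = 0.017), Slfn4 at -5.16 (adjusted p = 0.0185) and Rab44 at -4.81 (adjusted p = 0.0371). Cd209f lost the call without CD11chi RAS replicate 2, 3 or 4 or CD11clo RAS replicate 2, 3 or 4, or with replicates 3 and 4 summed (adjusted p from 0.00644 to 0.256 over 19 alternatives), and Hdc without CD11chi RAS replicate 3 or 4, or with replicates 3 and 4 summed (adjusted p from 6.33e-06 to 0.171 over 20 alternatives). Slfn4 lost it without CD11chi RAS replicate 2 or 4 or CD11clo RAS replicate 4, or with replicates 3 and 4 summed (adjusted p from 6.50e-05 to 0.111 over 19 alternatives), and Rab44 without CD11chi RAS replicate 2, 3 or 4 or CD11clo RAS replicate 1, 2 or 4, or with replicates 3 and 4 summed (adjusted p from 0.00547 to 0.168 over 19 alternatives). Mrgpra2b was at 0 CPM in CD11chi replicates 2 to 4, and it, Chi3l1, Cd209f and Slfn4 belong to families with near-copies between which reads could be split.

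**Figure D4:**
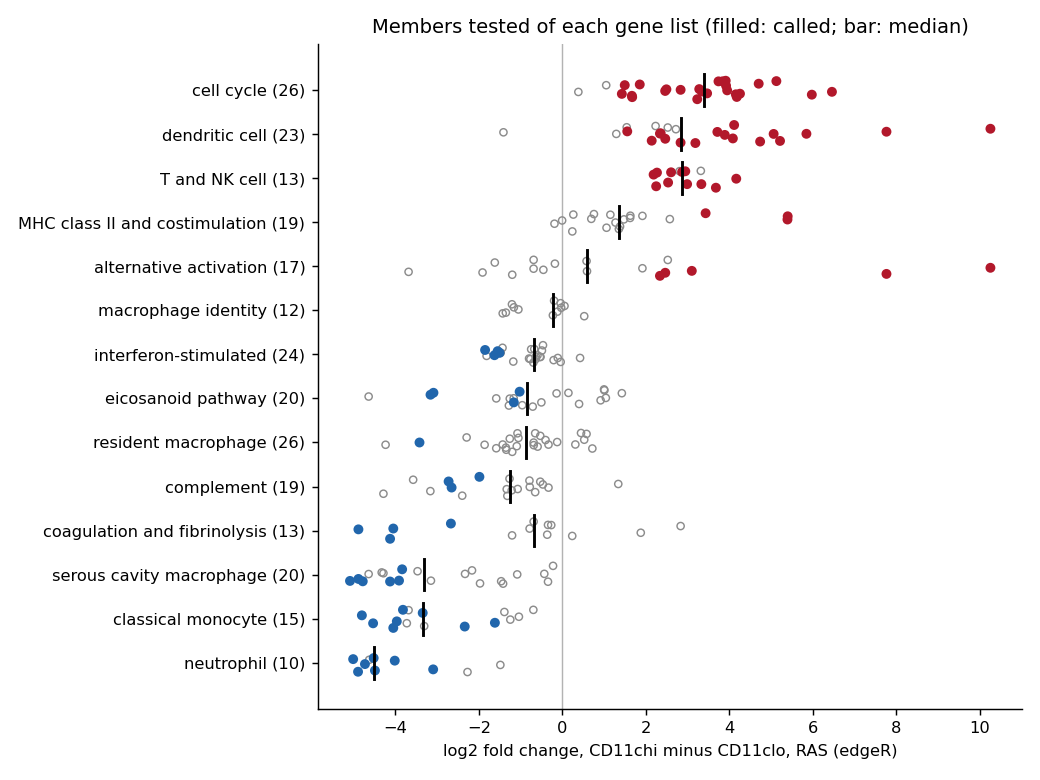
Log2 fold change of every tested member of 14 gene lists, CD11chi over CD11clo in RAS kidneys, with called genes filled, others open and a bar at the list's median. The medians run from -4.50 for the neutrophil list to 3.40 for the cell cycle list, against 0.01 over all genes tested.

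Resident macrophage genes and those of kidney tissue were read against the 7.34% called over all genes, a share that gives few calls in lists of this size. Of 26 resident macrophage genes, Folr2, a folate receptor, was the 1 called (3.85%), lower in CD11chi at -3.42 (adjusted p = 0.0491), a call lost without CD11chi RAS replicate 2, 3 or 4 or CD11clo RAS replicate 1, 2, 3 or 4, or with replicates 3 and 4 summed (adjusted p from 0.00283 to 0.167 over 19 alternatives). C1qb, a chain of complement C1q, was at -0.33 (adjusted p = 0.785) and Cx3cr1, the fractalkine receptor, at -1.34 (adjusted p = 0.224). Proximal tubule genes summed to 392 to 1334 CPM in CD11chi and 95.1 to 780.5 CPM in CD11clo libraries, and endothelial genes to 57.7 to 125 and 70.2 to 369.7 CPM. EdgeR called none of 16 proximal tubule genes (4 had an unadjusted p under 0.05, DESeq2 called 4 and limma 0), of 13 distal nephron genes (2, 0 and 1), of 5 podocyte genes (3, 1 and 0), of 13 endothelial genes (1, 0 and 0), of 12 fibroblast genes (1, 1 and 0) and of 3 erythrocyte and platelet genes (0, 0 and 0). The same held for 10 Fc receptor genes (4, 3 and 1) and 20 immediate early genes (2, 1 and 0). Of 25 glycolysis and hypoxia genes 1 was called, and of 22 lipid handling genes only Lpl.

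The same contrast in Sham kidneys came from libraries that the RAS comparison did not use. It called 184 of 12105 genes (1.52%), and 595 with replicate numbers as a block. Leaving out 1 library gave 0 calls for 5 of the 6 libraries, with 1272 to 2034 genes at an unadjusted p under 0.05, and 627 calls without CD11chi Sham replicate 3, in which mitochondrial transcripts took 18.4% of counts. Of the 903 genes called in RAS, 831 were tested in Sham, and 806 of these (97.0%) had the same sign, against 69.1% of the 11729 genes tested in both. The Sham groups did not overlap for 572 of the 831 (68.8%), against 27.9% of all. In the fits without a block, 89 of the 831 (10.7%) were also called in Sham, which was 50% of the Sham calls tested in RAS. The median log2 fold change in Sham was 1.41 for genes called higher in RAS and -1.40 for those called lower.

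The dendritic cell, cell cycle, classical monocyte and neutrophil lists had medians of the same sign in Sham kidneys. Among the lists whose medians changed sign were non-classical monocyte genes (-0.51 in RAS and 0.22 in Sham), CC chemokines (-0.68 and 0.85), Fc receptors (-0.21 and 0.83) and endothelial genes (-1.05 and 2.55). The median log2 fold change in Sham was 2.90 for the cell cycle list, 3.44 for dendritic cell genes, -2.51 for classical monocyte genes and -3.22 for neutrophil genes. Itgax differed by 3.95 in Sham, Mmp12 by 6.33, Zbtb46 by 3.41, Thbs1 by -3.03 and F13a1 by -3.36 on the log2 scale. Ccl17 was at 20.8, 7.01 and 12.7 CPM in CD11chi Sham replicates 1 to 3 and at 0 to 0.343 CPM in CD11clo Sham libraries. CPM of Sham libraries were scaled among those libraries alone, apart from the RAS libraries, and levels in RAS and Sham were not compared library by library. Resident macrophage genes had a median of 1.40 in Sham and -0.87 in RAS, a difference that was not tested for the list. In RAS the list summed to 14085, 14884, 4771 and 3947 CPM in CD11chi replicates 1 to 4 and to 7692, 9679, 32552 and 10604 CPM in CD11clo replicates 1 to 4. Emr1 differed by -0.12 in Sham on the log2 scale. T cell and NK cell markers summed to 22.6 to 86.4 CPM in CD11chi Sham and 2.53 to 13.1 CPM in CD11clo Sham libraries, and neutrophil markers to 80.9 to 269.6 and 1226 to 2913 CPM. Proximal tubule genes summed to 546 to 22958 CPM in CD11chi Sham and 215 to 7010 CPM in CD11clo Sham libraries. What part these transcripts had in the Sham contrast was not tested.

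**Figure D5:**
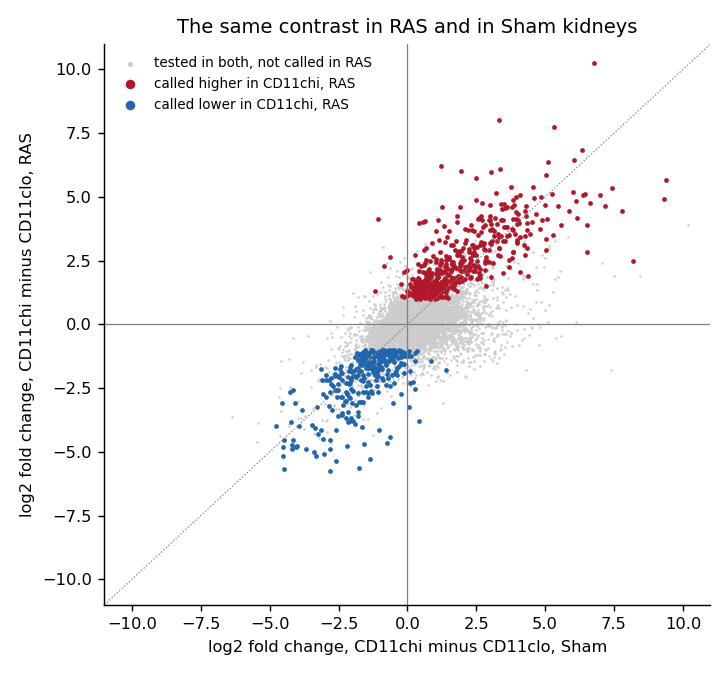
Log2 fold change of each gene, CD11chi over CD11clo, in Sham (x axis) and in RAS kidneys (y axis), with genes called in RAS coloured by direction. Of 831 RAS-called genes tested in Sham, 806 lie in the quadrants where both signs are the same.

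Whether the difference between the populations itself changed with RAS was tested over 13540 genes in the 14 libraries of both conditions. No gene passed edgeR's quasi-likelihood test for this interaction (0% called), while 900 genes had an unadjusted p under 0.05 and DESeq2 called 15. The interaction is the log2 fold change, CD11chi over CD11clo, in RAS less that in Sham. Among positive interactions the smallest unadjusted p were those of Gpc1, Ckap2, Ffar2, Tbc1d4 and Ezh2, and among negative ones those of Tgfb3, Zfp37, Serpinb6b, N4bp3 and Tmeff1, all with an adjusted p of 0.735. Gpc1 had a log2 fold change of 1.30 in RAS and -1.18 in Sham, and Ffar2 1.11 and -1.57. Ezh2, a histone methyltransferase of dividing cells, had a log2 fold change of 2.01 in RAS and 0.63 in Sham. Ccl17 had an interaction of 3.54 log2 units with an adjusted p of 0.792.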

How the data were processed

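RNA of sorted cells was amplified with an ultra-low-input kit (SMART-Seq v4) and made into Nextera XT libraries. Per the study's methods, the authors aligned paired-end reads to mm10 with OmicSoft's OSA aligner, annotated genes with Ensembl R83 and deposited estimated counts per gene, of which 9.70% to 11.6% of values in these 8 libraries were not whole. A second deposited table held log2(TPM + 1) values that the authors had quantile normalized, used here for the limma alternative, which had its own filter on low values, and for an alternative of the distance between libraries. Whether counting used strand was not given in the sources used here. Estimated counts were rounded and 37620 lines summed to 34236 symbols (3730 lines shared a symbol, 25 names had turned into dates). Genes passed edgeR's filterByExpr (minimum count 10, minimum total 15) and were tested with edgeR 4.0.16 in R 4.3.3 (TMM, quasi-likelihood F test, two-sided, Benjamini-Hochberg adjustment over all genes tested), with group as the only term, and called at an adjusted p under 0.05 and a fold change above 2. Sham libraries and the interaction were fitted the same way. Alternatives used DESeq2 1.42.0, limma 3.58.1, other size factors, filters, all 6 groups, a replicate block and left-out libraries. The scripts were tested on simulated data. In Sham, same-numbered libraries deviated together (r = 0.343, 0.399 and 0.661), so the blocked count was given beside the other, although CD11chi replicates 1 and 2 each correlated best with the CD11clo library of the other number (0.521 and 0.483).

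Named genes were, in each direction, the 10 with the largest fold change and the 5 most abundant among called genes whose groups did not overlap and whose average log2 CPM was at least 3, leaving out predicted genes, pseudogenes and receptor segments, then members of the gene lists, and for the interaction the 5 with the smallest p in each direction. The gene lists were written from general knowledge, and members and lists were chosen with earlier results of these data known. Positions came from GENCODE vM21 (GRCm38, the sequence of mm10) and promoters from RefSeq GRCm38.p6. Kidney-resident macrophage libraries entered only the fit of all 6 groups. A few members of the lists are not reported here by name.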

Additional observations from a re-analysis of the deposited data

Results flagged for a closer look

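A library was set apart where the gap between the highest or lowest of 4 libraries and its neighbour took most of the group's range (above Dixon's critical value for 4 values). Of 88 groups of 4 examined, 12 met this. The groups share the same libraries and many are genes picked for their fold change, so that this count cannot be set against a chance rate. Where all other libraries are at 0, as for Mrgpra2b, any other value meets it. CD11chi replicate 1 held 713 CPM of Emr1 against 110.4 to 189.6 CPM in the other CD11chi libraries, 224 CPM of F13a1 against 34.3 to 48.7, 16.4 CPM of Slfn4 against 0.440 to 2.75, 4.57 CPM of Cd209f against 0 to 0.110, 4.04 CPM of Vcan against 1.24 to 1.68, and 0.527 CPM of Mrgpra2b against 0. In the same library the 10 genes with the most counts took 12.1% of all counts, against 16.5% to 17.0% in the others. CD11clo replicate 3 held 1739 CPM of Emr1 against 667 to 825 CPM in the other CD11clo libraries, 230.3 CPM of Fcgr1 against 114 to 116, and 556 CPM of Gm2a against 816 to 850.2. Its resident macrophage list summed to 32552 CPM against 7692 to 10604, and its 10 genes with the most counts took 15.1% against 9.54% to 9.69%.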

How the results depend on the processing

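No call on a named gene and no distance between libraries changed direction under any alternative tried. Of 131 named genes called in RAS, 8 stayed called under every alternative, 123 lost the call under at least 1, and 68 stayed called with CD11chi replicates 3 and 4 summed. Against 903 calls in RAS, there were 279 with these libraries summed, 26 with both left out, 357 with them summed and CD11clo replicate 3 left out, 1478 by DESeq2 and 1749 at an unadjusted p under 0.05 and a fold above 2 in place of the adjusted p, and leaving out 1 library gave 256 to 1660. Fewer libraries leave fewer degrees of freedom, and the cause was not tested further. The other settings gave 726 to 1250 calls. Against 184 calls in Sham, there were 1079 by DESeq2, 95 without the filter on low counts, 113 with the library total as size factor and 1521 at an unadjusted p with the same fold, and leaving out 1 library gave 0 to 627. Against 0 interaction calls, there were 15 by DESeq2 and 711 at an unadjusted p with a fold above 2.

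In RAS the replicate block gave 1114 calls, and 9 of the 131 named calls were lost under it. Same-numbered libraries had correlations of 0.266, 0.283, 0.0698 and 0.0928, and libraries of different numbers had correlations from -0.234 to 0.174. CD11chi replicates 1, 2 and 4 each correlated best with the CD11clo library of the same number, and replicate 3 with CD11clo replicate 4 (0.174). Whether the numbers pair the samples was not given in the sources used here. In Sham the block gave 595 calls. The depth allows no statement on genes under about 3 counts in a library.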
